A study of Rattus norvegicus with 6 samples.

Results

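Genes that mark the choroid plexus, the blood vessels and the meninges were followed on arrays of rat hippocampal slice cultures, with and without gabazine. A list of 39 such genes was taken, and every probe set that the array annotation names with exactly 1 of these symbols was read. This gave 55 probe sets of 36 genes, out of 31099 probe sets and 14218 genes with 1 symbol. The choroid plexus list had 21 probe sets of 13 of its 15 genes, the vascular list 20 of 14 of 15 and the meningeal list 14 of all 9, while Clic6, Slc4a5 and Cdh5 are unnamed here. Each replica came from 2 Wistar rat littermates, which the sample labels put at postnatal day 4. Their hippocampi were grown as organotypic cultures in roller tubes, where a slice of tissue keeps its local circuits. Some cultures of a replica received 20 µM gabazine for 90 min, an antagonist of the GABA-A receptor, and the others stayed untreated as controls. There were 3 control and 3 gabazine arrays, and arrays with the same replica number formed a pair, so that each array stands for several cultures of 2 animals.

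The choroid plexus is the fringe of epithelium and vessels in the brain ventricles that secretes cerebrospinal fluid, and it lies against the hippocampus along the choroidal fissure. Its epithelial cells make transthyretin (Ttr), which carries thyroid hormone. The meninges are the connective tissue sheets over the brain, whose fibroblasts lay down collagens and small proteoglycans, and the vessels bring endothelial cells and pericytes. A slice can carry any of these tissues at its edge, and the question of the comparison was whether paired cultures held them in uneven amounts. Several members are also known from other brain cells, such as Cp and Igfbp2 from astrocytes and Enpp2 and Ptgds from oligodendrocytes. The array measured RNA of whole cultures, in which fewer cells of a type and less RNA per cell cannot be told apart.

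Promoter sequences are shown for 4 of the members that stood over 2-fold apart in a pair, namely Aqp1 and Col8a1 of the choroid plexus list and Ptgds and Ogn of the meningeal list. Ttr, Kdr, Dcn and, on 1 of its probe sets, Otx2 were also over 2-fold apart in a pair and are not shown. Each is the 250 bases before the gene's annotated start in RefSeq (build GRCr8), read 5′ to 3′ on the gene's strand. Capitals mark matches, on either strand, to the TATA box (TATAAA), the CCAAT box (CCAAT), the GC box (GGGCGG) or the core that Otx2 binds (TAATCC).
Aqp1, chr4:85812534-85812783, plus strand: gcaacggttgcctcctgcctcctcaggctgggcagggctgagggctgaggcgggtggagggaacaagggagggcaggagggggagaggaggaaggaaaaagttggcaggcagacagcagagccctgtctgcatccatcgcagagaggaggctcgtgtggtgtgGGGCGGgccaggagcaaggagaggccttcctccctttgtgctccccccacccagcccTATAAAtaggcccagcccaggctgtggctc
Col8a1, chr11:56246532-56246781, plus strand: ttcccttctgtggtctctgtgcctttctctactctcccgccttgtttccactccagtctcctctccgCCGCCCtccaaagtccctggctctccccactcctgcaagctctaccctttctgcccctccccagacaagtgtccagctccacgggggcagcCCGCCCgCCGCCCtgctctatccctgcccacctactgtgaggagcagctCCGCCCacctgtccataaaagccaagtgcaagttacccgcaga
Ptgds, chr3:28682979-28683228, minus strand: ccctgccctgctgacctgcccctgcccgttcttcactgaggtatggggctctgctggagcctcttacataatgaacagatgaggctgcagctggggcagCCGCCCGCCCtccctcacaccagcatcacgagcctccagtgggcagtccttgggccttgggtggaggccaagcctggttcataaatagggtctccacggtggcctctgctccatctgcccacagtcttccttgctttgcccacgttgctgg
Ogn, chr17:15258996-15259245, minus strand: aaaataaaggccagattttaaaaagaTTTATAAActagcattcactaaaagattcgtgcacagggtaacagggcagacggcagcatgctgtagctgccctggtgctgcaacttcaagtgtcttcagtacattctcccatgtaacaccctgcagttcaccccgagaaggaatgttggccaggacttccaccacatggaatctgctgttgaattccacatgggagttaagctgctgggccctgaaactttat
A promoter was found for 22 of the 39 listed genes, 9 choroid plexus, 9 vascular and 4 meningeal. The GC box stood in 13 of the 22 and in 30.5% of all 33469 promoters of the table. The Aqp1 promoter held a TATA box 30 bases and a GC box 87 bases before the start, and that of Col8a1 held 4 GC boxes on the other strand. In Ptgds a pair of GC boxes overlapped, and in Ogn the TATA letters matched on both strands in overlapping positions. The CCAAT box stood in 7 of the 22 and in 34.0% of all, the TATA box in 5 and in 12.9%. Otx2 is a homeobox factor known from the choroid plexus, and the letters of its core stood in 0 of the 22 and in 6.34% of all promoters. A match is a description of the letters, and none of these 4 motifs stood in all 22 promoters.

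The arrays differed in ways that bear on these pairs. Pair 2 had array medians of 7.90 and 7.89, lower than the 8.63 to 8.71 of the other arrays, so the levels of different replicas are ordered below only where the order also holds with each array's median subtracted. The medians of the 18 hybridization control probe sets were 4.62, 12.20 and 11.25 on controls 1, 2 and 3 and 4.67, 10.41 and 11.20 on the gabazine arrays. Control transcripts were read at their 5′ and 3′ ends, and the median difference of their log2 ratios, 5′ minus 3′, was 0.50, -0.02 and -0.08 in pairs 1, 2 and 3 for the 3 rat controls. For the 4 bacterial poly-A controls, on 8 pairs of probe sets, it was 1.05, 0.36 and -0.04. Control and gabazine values were identical to the last digit for 16.1%, 24.1% and 25.7% of all probe sets in the 3 pairs, and a log2 ratio of 0.00 below can be such a tie. As a check of the treatment, Arc, an effector of dendritic spines induced by activity, had log2 ratios of 2.58, 2.06 and 3.71, and Fos, a subunit of AP-1, had 1.06, 0.86 and 1.09. The paper lists both among the genes it picked as up-regulated on these same arrays, so their rise is not independent of that choice.

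Over the 3 pairs, no member was called by limma with the pair as a block. At an adjusted p under 0.05, 0 of the 55 probe sets were higher and 0 lower, with 0% of all 31099 probe sets in either direction, and the smallest adjusted p of a member was 0.747. At an unadjusted p under 0.05, 0 were higher, against 1.84% of all probe sets, and 1 was lower, that of Lum, against 2.68%. The differences stood instead within single pairs, and not in the same one. Over 2-fold higher in pair 1 were 5 of the 55, against 4.07% of all probe sets, while pair 2 had 4, against 0.685%, and pair 3 had 0, against 0.318%. Lower by over 2-fold were 0, 1 and 2 member probe sets in pairs 1, 2 and 3, against 1.11%, 0.199% and 0.148% of all, and the 2 of pair 3 are both of Ogn. A pair holds 1 array of each condition, so no test was possible within it, and gabazine and the choice of cultures cannot be told apart there.

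**Figure D1:**
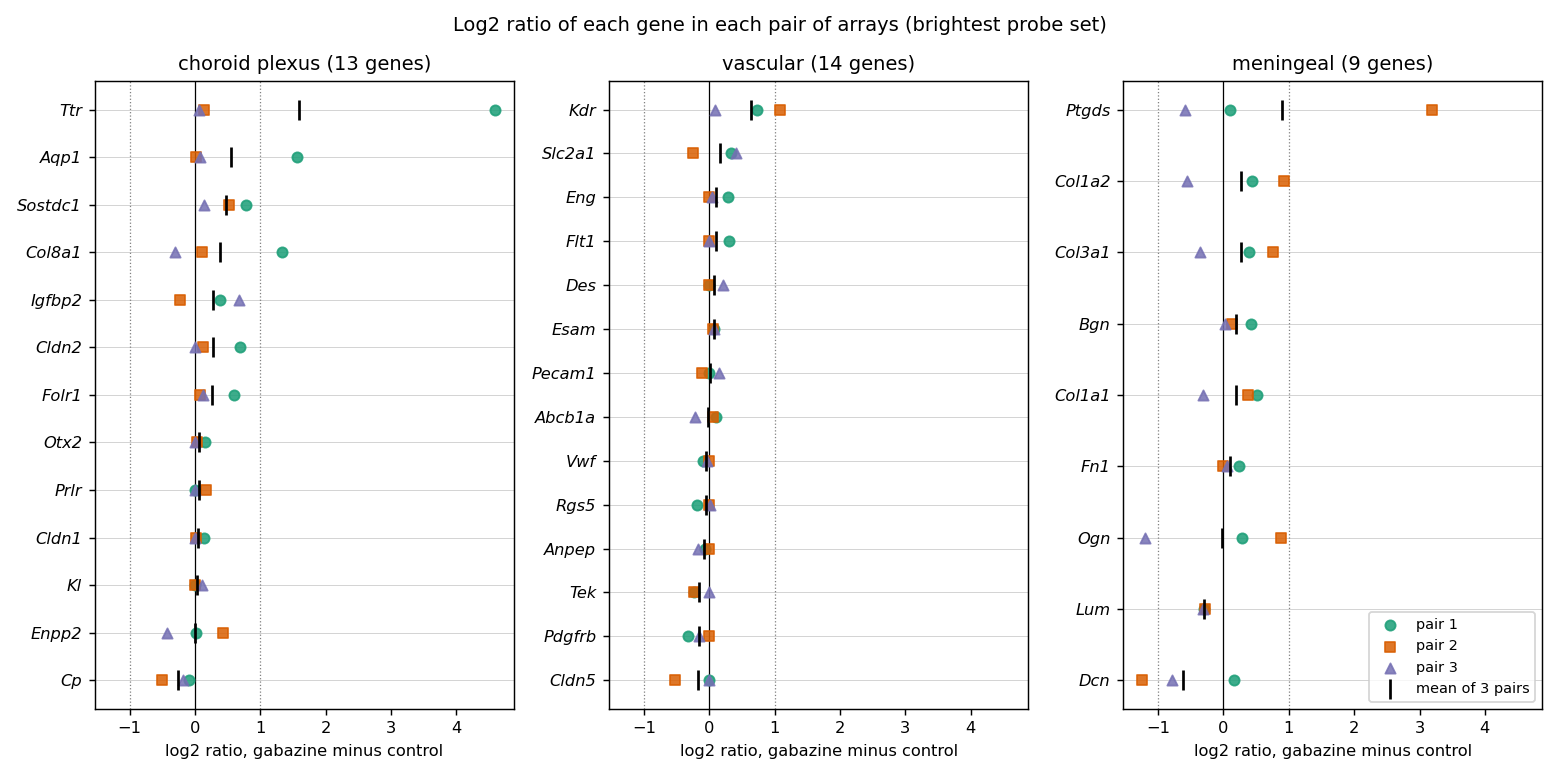
Log2 ratio of gabazine over control for the brightest probe set of each measured gene, with 1 point per pair of arrays, the mean of the 3 pairs as a black bar and dotted lines at 2-fold. Ttr stands alone at 4.59 in pair 1 and Ptgds at 3.20 in pair 2, while Kdr, at 1.08 in pair 2, is the vascular gene farthest from 0.

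Among the choroid plexus genes, Ttr had the largest difference of any gene in pair 1. Its log2 intensity was 8.44, 10.79 and 8.36 in controls 1, 2 and 3 and 13.03, 10.93 and 8.43 in the gabazine arrays. The treated array of pair 1 stood above all others, and both arrays of pair 2 stood above the remaining 3, so that the groups overlapped. In pair 1 the ratio was 24.1-fold, with rank 1 of 14218 genes, and in pairs 2 and 3 the log2 ratio was 0.14 and 0.07. The mean of the log2 ratios was 1.60 ± 2.59 (SD, n = 3 pairs; limma adjusted p = 0.747), and the SD is larger than the mean.

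The water channel of the apical membrane, Aqp1, was measured by 2 probe sets with like ratios in each pair. The brighter one stood at 8.50, 7.07 and 8.18 in the controls and at 10.06, 7.09 and 8.25 in the gabazine arrays, and the other had log2 ratios of 1.61, 0.06 and 0.00. In pair 1 the treated array stood above its control on both, by 2.96-fold and 3.06-fold, and in the other pairs both arrays were within 0.08 of each other. Col8a1, a short-chain collagen, stood at 9.73, 8.10 and 8.12 in the controls and at 11.07, 8.21 and 7.82 after gabazine. Both arrays of pair 1 were above the other 4 for this gene, and within the pairs the log2 ratios were 1.33, 0.11 and -0.30. Col8a1 had rank 93 and Aqp1 rank 59 among all genes in pair 1.

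Folr1, Cldn2 and Sostdc1 also had their highest ratio in pair 1, at under 2-fold. Folr1, the folate receptor through which the epithelium moves folate into the fluid, had log2 ratios of 0.59, 0.08 and 0.12. Its levels were 10.07, 8.67 and 9.29 in the controls and 10.66, 8.75 and 9.41 in the gabazine arrays. Cldn2, a claudin that makes the junctions of leaky epithelia permeable to cations, had 0.69, 0.12 and 0.00. Sostdc1, a secreted antagonist of BMP and Wnt signals, had 0.78, 0.52 and 0.14, a mean of 0.48 ± 0.32 (SD, n = 3 pairs), and an unadjusted limma p of 0.0564. In pair 1 the treated array was higher than its control for 10 of the 13 genes, against 33.9% of all genes, and in pair 2 also for 10, against 34.3%. Pairs 1 and 2 thus differed in the size of the ratios and not in this count. In pair 3 the treated array was higher for 6 of the 13, lower for 3 and tied for 4, while 51.9% of all genes were at or under 0 there.

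Kl, Prlr, Cldn1 and Otx2 had log2 ratios of at most 0.17 on their brightest probe sets. Kl, the co-receptor of the hormone FGF23, had log2 ratios of 0.00, 0.00 and 0.11, and Prlr, the prolactin receptor, had 0.00, 0.17 and 0.00, with 4 of these 6 values being ties. Cldn1, a sealing claudin, had 0.13, 0.02 and 0.00. Otx2 had 0.15, 0.03 and 0.00 on the brighter of its 2 probe sets and 0.44, 1.84 and -0.10 on the other, which stood at 5.99 in control 2 and 7.83 in gabazine 2. The 2 probe sets of Otx2 thus disagree in pair 2. Of the 21 choroid plexus probe sets, 11 are among the 40% of all probe sets with the lowest mean, including all those of Kl, Prlr, Otx2, Cldn1, Cldn2 and Sostdc1, and the table gives no measure of detection for them.

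Igfbp2, Enpp2 and Cp, which are shared with glia, did not follow Ttr. Aqp1 and Cldn1 were also listed as shared with other brain cells. Both had their highest ratio in pair 1, at 1.56 and 0.13 on their brightest probe sets. Igfbp2, a binding protein of insulin-like growth factors, had log2 ratios of 0.38, -0.23 and 0.67. Enpp2, the enzyme autotaxin that makes lysophosphatidic acid, had the smallest mean difference of the list, 0.01 ± 0.43 (SD, n = 3 pairs), from 0.02, 0.43 and -0.43. Its levels were 11.24, 11.02 and 11.85 in the controls and 11.26, 11.46 and 11.42 in the gabazine arrays, which overlap. Cp, the copper protein ceruloplasmin, was lower in all 3 pairs on 2 of its 3 probe sets, with -0.09, -0.51 and -0.19 on the brightest. Higher in all 3 pairs were 5 of the 21 choroid plexus probe sets, and of all 55 members 10 were, against 6.92% of all probe sets, while 3 of the 55 were lower in all 3 pairs, against 9.49%. The 13 genes had median log2 ratios of 0.38, 0.08 and 0.00 in pairs 1, 2 and 3, beside -0.01, 0.00 and 0.00 for all genes. The high value of pair 1 came with the 5′ shift of the control transcripts in the same pair, where 5′ minus 3′ was 1.70 for beta-actin, 0.50 for GAPDH and 0.38 for hexokinase. The part of that shift in the choroid plexus values was not tested.

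**Figure D2:**
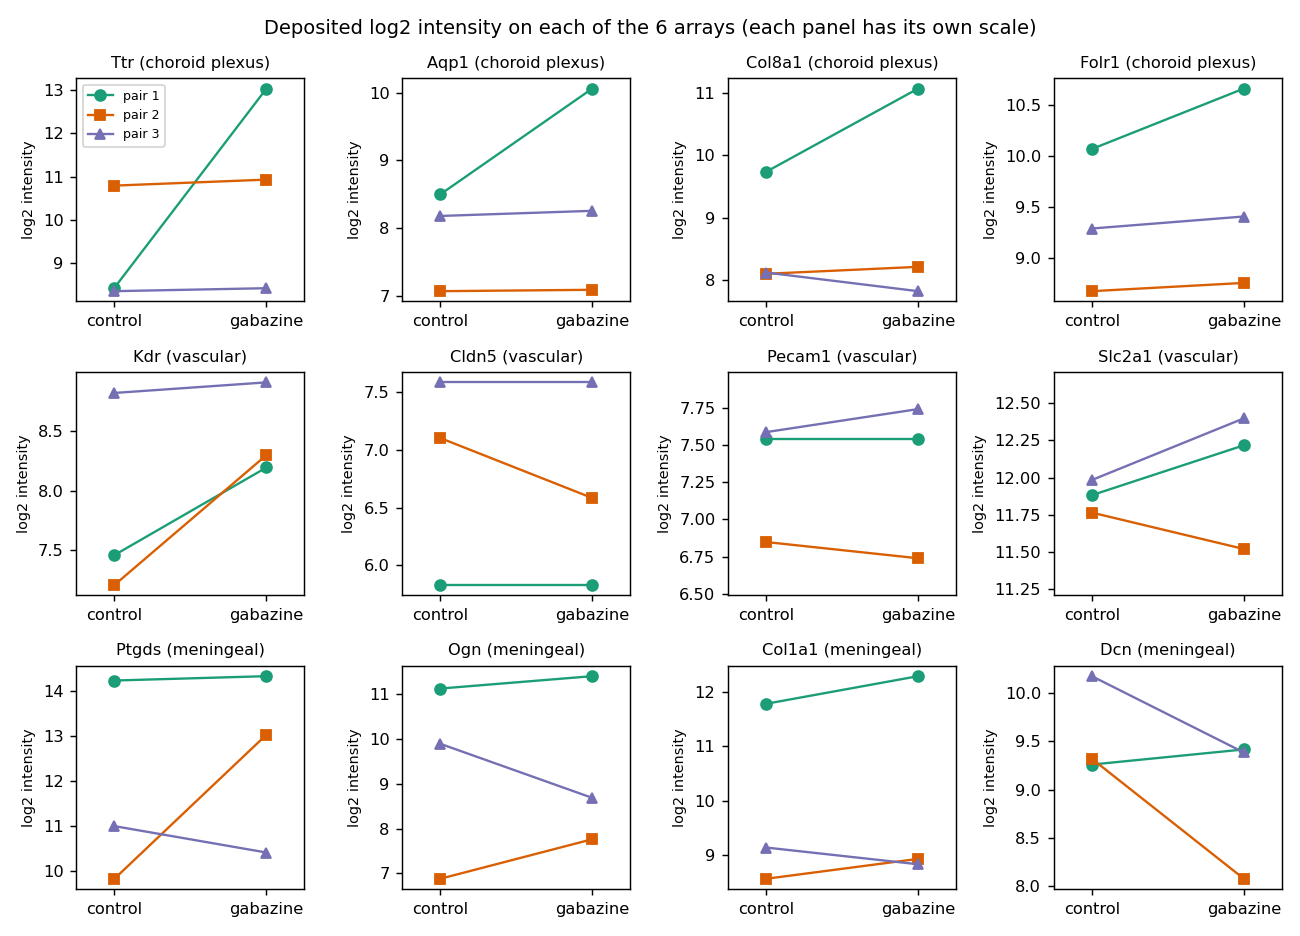
Deposited log2 intensity of 12 genes on the 6 arrays, with a line joining control and gabazine of each pair and a scale of its own in each panel. Ttr of pair 1 stands at 8.44 and 13.03 and Ptgds of pair 2 at 9.83 and 13.03, while the lines of Pecam1 are almost flat.

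Few other genes had the profile of Ttr. A log2 ratio of at least 2 in pair 1, with both other pairs within 0.5 of 0, was found for 11 other genes of 14218, of which the 10 highest were looked at. These were led by Actr2-ps1 at 3.04, Rap2b, a small GTPase, at 2.93 and Trib1, a pseudokinase, at 2.82. Bace1, the beta-secretase, had 2.64, and Syt1, the calcium sensor of synaptic vesicles, had 2.53. The remaining 5 were C3h11orf96, RT1-CE10, Entr1, Csrnp3 and Gnaq, between 2.03 and 2.62. Apart from Ttr, no listed gene of the choroid plexus, the vessels or the meninges reached 2 in pair 1, the highest being Aqp1 at 1.56. The cut thus kept such genes out of the 10 in advance, and the 10 do not show whether they follow Ttr.

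The vascular genes had medians near 0 in every pair. Endothelial cells line the vessels and form the blood-brain barrier, and pericytes wrap the capillaries. Cldn5, the main claudin of that barrier, stood at 5.83, 7.10 and 7.59 in the controls and at 5.83, 6.58 and 7.59 in the gabazine arrays, with exact ties in pairs 1 and 3 and a log2 ratio of -0.52 in pair 2. Both arrays of pair 1 were the lowest of the 6. Pecam1, an adhesion molecule between endothelial cells, had the smallest mean difference, with levels of 7.54, 6.85 and 7.59 in the controls and 7.54, 6.74 and 7.74 after gabazine. Its mean log2 ratio was 0.02 ± 0.13 (SD, n = 3 pairs). The glucose transporter Slc2a1 stood at 11.88, 11.76 and 11.98 against 12.22, 11.52 and 12.40, and its log2 ratios of 0.34, -0.25 and 0.42 had no common direction.

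Kdr, the main receptor of VEGF on endothelium, was the vascular member with the largest difference. On its brighter probe set it stood at 7.46, 7.21 and 8.81 in the controls and at 8.19, 8.30 and 8.90 in the gabazine arrays. It was higher in all 3 pairs, by 0.73, 1.08 and 0.09, but the groups overlapped. With the array median subtracted, control 3 stood at 0.11, above gabazine 1 at -0.51 and below gabazine 2 at 0.41. The mean was 0.63 ± 0.51 (SD, n = 3 pairs; limma adjusted p = 0.747). Its other probe set, among the 40% dimmest, had -0.27, 0.01 and 0.00, so the difference rests on 1 of 2 probe sets. Flt1, the second receptor of VEGF, had 0.31, 0.00 and 0.00 on its brightest probe set. The other 2 probe sets of Flt1 had 0.17, 0.09 and 0.03 and 0.40, -0.13 and -0.11. Tek, the receptor of angiopoietins, had -0.23, -0.23 and 0.00.

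The remaining endothelial and pericyte members lay between -0.32 and 0.29 in every pair on their brightest probe sets. Esam, an adhesion molecule of endothelial junctions, had 0.07, 0.06 and 0.08, and Vwf, the clotting factor stored in endothelium, had -0.09, 0.00 and -0.04. Eng, a co-receptor of TGF-beta, had 0.29, 0.00 and 0.04, and the efflux pump Abcb1a had 0.11, 0.06 and -0.22. For the pericytes, Pdgfrb, the receptor that recruits them, had -0.32, 0.00 and -0.16 on its brightest probe set and 0.43, 0.09 and -0.02 on the next. Rgs5, a regulator of G protein signalling, had -0.18, 0.00 and 0.01, Des, the filament protein desmin, had 0.00, 0.00 and 0.21, and Anpep, an aminopeptidase, had -0.07, 0.00 and -0.17. The median of the 14 vascular genes was 0.00, 0.00 and 0.01 in pairs 1, 2 and 3. Of the 20 vascular probe sets 13 are among the 40% dimmest, and 7 of the 20 were tied in pair 2.

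Most of the meningeal genes had ratios of opposite sign in different pairs, while Bgn, Fn1 and Lum did not. Ptgds, the prostaglandin D synthase that the leptomeninges secrete, stood at 14.23, 9.83 and 11.00 in the controls and at 14.32, 13.03 and 10.41 in the gabazine arrays. In pair 2 it was 9.16-fold higher after gabazine, with rank 2 of all genes there, while the log2 ratios of pairs 1 and 3 were 0.10 and -0.59. Its mean was 0.90 ± 2.01 (SD, n = 3 pairs; limma adjusted p = 0.750). Both arrays of pair 1 lay above all others. Ogn, the small proteoglycan osteoglycin, stood at 11.12, 6.88 and 9.89 in the controls and at 11.39, 7.76 and 8.68 after gabazine. Its log2 ratios of 0.28, 0.88 and -1.20 gave a mean of -0.02 ± 1.07 (SD, n = 3 pairs), the smallest of the list, from 3 differences that partly cancel.

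The fibrillar collagens followed the same signs. Col1a1, a chain of collagen I, stood at 11.79, 8.55 and 9.13 in the controls and at 12.30, 8.92 and 8.82 in the gabazine arrays, with log2 ratios of 0.51, 0.37 and -0.31. Col1a2, the other chain, had 0.44, 0.92 and -0.56, and Col3a1 of collagen III had 0.40, 0.75 and -0.36. All 5 probe sets of these 3 collagen genes were higher in pairs 1 and 2 and lower in pair 3. That pattern, which was chosen after the values were seen, held for 9 of the 14 meningeal probe sets, which are of 5 genes, and for 3.73% of all probe sets. It held for 9 of the 14 and 3.79% of all with arrays centred on their median, for 10 and 5.31% after quantile normalization, and for 10 and 8.52% after cyclic loess. In the values as deposited it held for 4 of the 21 choroid plexus and 2 of the 20 vascular probe sets. The other 3 probe sets of Ogn ran from -0.25 to 1.48 in pair 1, from 0.55 to 1.04 in pair 2 and from -1.10 to -0.35 in pair 3, so only pair 1 lacked a common sign.

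Dcn and Lum, a pair of small leucine-rich proteoglycans that bind collagen fibrils, did not follow the collagens. Dcn, decorin, stood at 9.26, 9.32 and 10.17 in the controls and at 9.42, 8.08 and 9.38 after gabazine. In pair 2, where Ptgds and the collagens were higher, Dcn was 1.24 lower on the log2 scale, and in pair 3 it was 0.79 lower. Lum, lumican, was lower by almost the same amount in every pair, with levels of 10.22, 8.31 and 9.58 in the controls and 9.92, 8.02 and 9.26 after gabazine. Its log2 ratios of -0.30, -0.29 and -0.31 gave a mean of -0.30 ± 0.01 (SD, n = 3 pairs) and the smallest unadjusted limma p of the members, 0.00212, but an adjusted p of 0.747. Bgn, biglycan, had 0.42, 0.14 and 0.03, and Fn1, fibronectin, had 0.24, 0.00 and 0.05. The median of the 9 genes was 0.28, 0.37 and -0.36 in pairs 1, 2 and 3. In pair 2 the hybridization controls of the gabazine array also stood 1.75 lower than those of its control, and their part in the meningeal values was not tested.

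The untreated arrays also differed from each other, and of the 3 member lists the meningeal one had the widest range. With the array median subtracted, Ptgds stood at 5.60, 1.94 and 2.29 in controls 1, 2 and 3, and Ogn at 2.49, -1.01 and 1.18. Control 1 was the highest of the 3 controls for 8 of the 9 meningeal genes, while it was the highest for 41.0% of all genes, and the exception was Dcn, which was lowest there. The median range over the 3 controls was 1.70 for the meningeal genes, 0.98 for the vascular and 0.71 for the choroid plexus genes, beside 0.54 for all genes. After quantile normalization these medians were 1.66, 0.96, 0.79 and 0.53. A further 47 meningeal genes had a median of 1.04. Such ranges were not particular to meningeal genes, as the median was 1.54 for 13 microglial genes. Each control came from other littermates, so culture, litter and array cannot be told apart in these ranges.

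Ttr again differed from its own list. Over the array median it stood at -0.19, 2.90 and -0.35 in the controls, a range of 3.24, so that the untreated cultures of replica 2 were high in Ttr while those of replica 1 were high in Ptgds and collagens. Col8a1 and Cp, with ranges of 1.69 and 1.64, were the only other choroid plexus genes above 1.37 on their brightest probe sets, the 95th percentile of all genes. The probe sets of Aqp1 disagreed here, with a range of 0.69 on the brighter and 2.60 on the other. Cldn5 had a range of 2.01 and was lowest in control 1, and Rgs5 had 1.89 and was highest in control 3, while Pecam1 varied by only 0.07. The range over the controls exceeded the largest difference within any pair for 8 of 9 meningeal, 13 of 14 vascular and 9 of 13 choroid plexus genes, and for 11266 of all 14218 genes. Dcn in the meningeal and Pecam1 in the vascular list were the exceptions, and in the choroid plexus list Ttr, Aqp1, Cldn2 and Sostdc1, though on its other probe set Aqp1 was no exception.

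**Figure D3:**
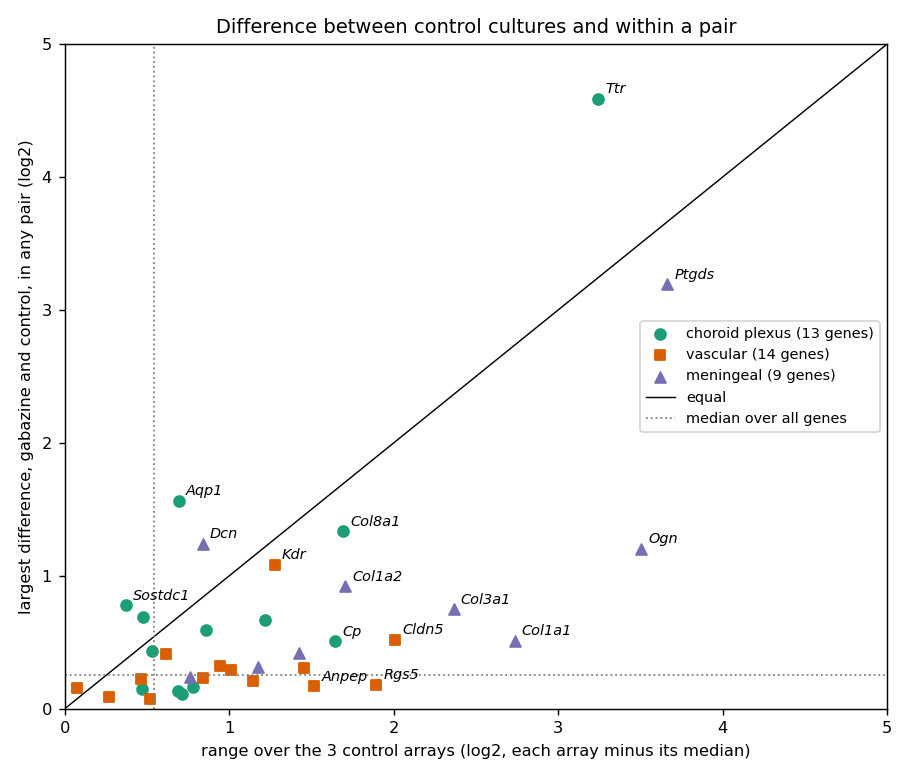
Range of each gene over the 3 control arrays on the x axis (log2, array median subtracted) against its largest absolute difference between gabazine and control within a pair on the y axis (log2), for 36 genes. Ttr lies above the line of equal values at 3.24 and 4.59, and Ptgds and Ogn lie furthest to the right at 3.66 and 3.50.

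Further markers of the same tissues were read from lists that are not part of the 39 genes. Of 39 measured choroid plexus genes among 45 listed, 0 were called by limma at an adjusted p under 0.05 in either direction. At an unadjusted p under 0.05, 1 was lower and 0 higher, against 2.84% and 2.37% of all genes. Their medians were 0.00, 0.00 and 0.03. Over 2-fold higher in pair 1 were 3 of the 39, against 192 of all 14218 genes. Lower by over 2-fold there were 0 of the 39, against 139 of all genes. Highest in pair 1 were Igf2, a growth factor made by choroid plexus and leptomeninges, at 1.47, and Sulf1, a sulfatase of heparan sulfate, at 1.38. Lowest were Slc4a10, a bicarbonate transporter, at -0.80 and Stra6, the receptor of retinol binding protein, at -0.65. In pair 2 Slc13a4, a sulfate transporter, had 2.18, and Htr2c, the serotonin receptor of the choroid plexus, had -1.12. The 20 genes of cilia and ependyma had medians of -0.07, 0.00 and 0.00, and ran in pair 1 from -1.05 for Rfx3 and -0.48 for Ak7 to 0.07 for Tekt1 and 0.11 for Lrrc23. By limma 0 of the 20 were called adjusted, while 1 was lower and 0 higher without adjustment, against the same 2.84% and 2.37% of all genes.

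Of 47 other meningeal genes, 0 were called at an adjusted p under 0.05 by limma, with 3 higher and 0 lower unadjusted, against 2.37% and 2.84% of all genes, and their medians were 0.24, 0.00 and 0.00. Over 2-fold higher in pair 2 were 3 of them, against 0.295% of all genes. Gjb2, connexin 26 of the leptomeninges, had log2 ratios of 0.23, 1.79 and -0.52. Slc6a13, a GABA and taurine transporter, had 1.34, 1.04 and 0.00, and Aldh1a2, which makes retinoic acid in the meninges, had 0.45, 1.01 and 0.51. Zic1, a transcription factor of the meninges and cerebellum, had 1.40 in pair 1, and the lowest there were Efemp1 at -0.66 and Igfbp4 at -0.37, both secreted proteins. Among 35 other vascular genes 0 were called, with 0 in either direction also without adjustment, against the same 2.37% higher and 2.84% lower of all genes. Their medians were 0.00, -0.02 and 0.00. In pair 1 they ran from -0.64 for Ctla2a and -0.55 for Aplnr to 0.81 for Angpt1 and 0.99 for Mcam, and Tagln of smooth muscle had -1.20 in pair 2.

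**Figure D4:**
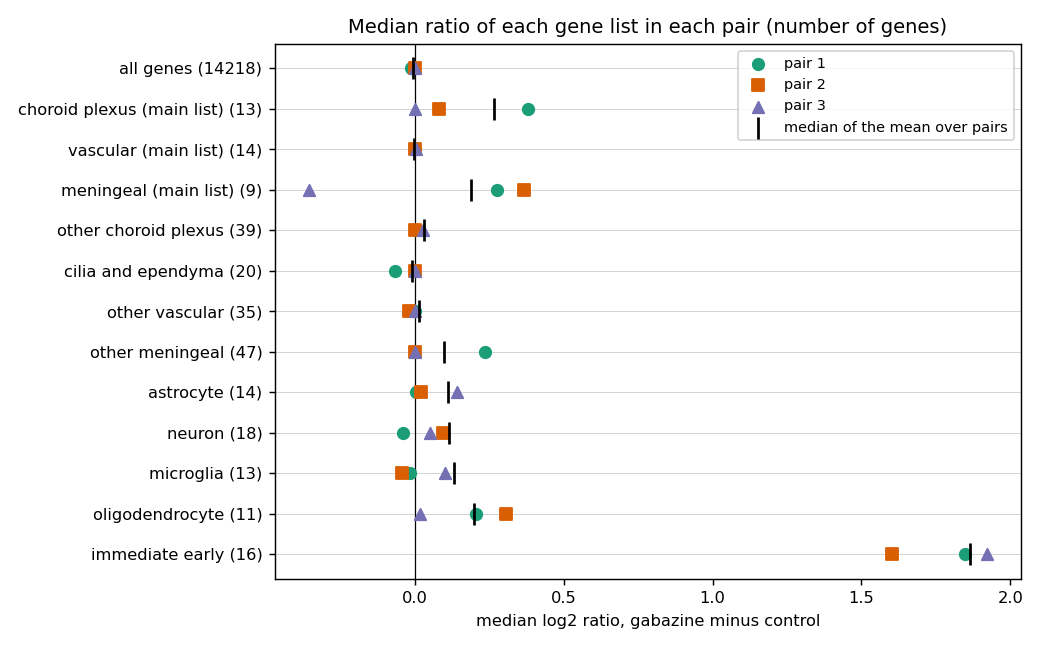
Median of each gene list in each pair, as log2 of gabazine over control, with the number of measured genes in brackets and the median of the mean ratio as a black bar. The meningeal list lies at 0.28, 0.37 and -0.36 in pairs 1, 2 and 3, while the immediate early genes lie above 1.6 in all pairs.

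Of the markers of other cells in the slice, those of oligodendrocytes had the highest medians in pairs 1 and 2. The 14 astrocyte genes had 0.01, 0.02 and 0.14, the 18 neuronal genes -0.04, 0.09 and 0.05, the 13 microglial genes -0.02, -0.04 and 0.10, and the 11 oligodendrocyte genes 0.21, 0.31 and 0.02. In each of these lists limma called 0 genes adjusted, and without adjustment 1, 1, 0 and 2 genes were higher and 0 lower at p under 0.05, against 2.37% and 2.84% of all genes. Single members stood apart in 1 pair here too. Gjb6, connexin 30 of astrocytes and leptomeninges, had 2.15 in pair 2, as did Camk2a, a kinase of excitatory neurons, with 1.26, and Gad2, which makes GABA, had 1.73 in pair 1. The lowest in pair 1 were Aqp4 at -0.52, Gja1 at -0.16, Prox1 at -0.53, Camk2a at -0.40, Ptprc at -0.78, Csf1r at -0.24, Sox10 at -0.24 and Mobp at -0.15. The highest not named so far were Slc1a2 at 0.42, Itgam at 0.81, Cx3cr1 at 0.67, Ugt8 at 0.57 and Mag at 0.48. The 16 immediate early genes had medians of 1.85, 1.60 and 1.92, from Srf at 0.56 and Nr4a3 at 0.86 to Junb at 3.09 and Fosb at 3.50 in pair 1. By limma 0 of the 16 were called adjusted, and 15 were higher at an unadjusted p under 0.05, against 2.37% of all genes. Most of the 16 are also among the genes that the paper picked as up-regulated on these same arrays. That count was therefore largely set in advance. The lowest log2 ratio of the list was 0.00 in pair 2 and 0.01 in pair 3.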

How the data were processed

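Total RNA of the 6 samples was hybridized to RAT2302 arrays (Affymetrix). Deposited values are log2 intensities, which the authors derived from the scans by RMA. Neither the RMA version nor whether replicas were normalized jointly is given in the sources used here. No detection call accompanies the values, and the number of arrays limits the precision. No array was dropped and 0 columns were left out.

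Gene symbols came from the platform annotation, with 20832 probe sets of 1 symbol, 436 of several and 9831 unnamed. Genes of the other lists were also matched by gene identifier to current RefSeq symbols. Members were read by the platform symbol alone, and the same matching would have added 0 member probe sets. A gene is given by its probe set with the highest mean unless said otherwise. The log2 ratio is gabazine minus control of the same replica, following the study's own pairing. All probe sets entered a limma model (version 3.58.1, R 4.3.3) holding treatment and pair, with Benjamini-Hochberg adjustment over all probe sets at 0.05. The script was tested on simulated data, where 100% of 200 probe sets shifted by 1 were recovered, with 6 false calls. Those data had 1 common SD and no ties, unlike the real values, so the test does not measure the power here. Same-numbered arrays deviated together from the group means, with correlations of 0.794, 0.664 and 0.853, and the design derives both samples of a replica from the same littermates.

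The members and lists were chosen with earlier results of these data known. Values of every array are given for the 3 members of a tissue with the largest difference in a pair, the one with the smallest mean difference, and Ttr, Cldn5 and Col1a1. Values of other members were added after they were seen. From other lists the 2 highest and 2 lowest in pair 1 are named, and others past 2-fold in pair 2 were added later. Alternatives dropped the pairing or 1 pair at a time, rescaled the arrays in 3 ways, removed dim or tied probe sets, switched on the trend and robust options of eBayes, and took the mean over a gene's probe sets or removed members shared with other brain cells.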

Additional observations from a re-analysis of the deposited data

How the results depend on the processing

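No alternative called a member at an adjusted p under 0.05, and over all probe sets limma without the replicate block called 14 higher, where every other setting called 0. That fit without the pairing left 1 member probe set higher and 0 lower when p was not adjusted (threshold 0.05). The count of member probe sets higher at that threshold, 0 in the main setting, was 2 with arrays centred on their median, 1 after quantile normalization, 2 after cyclic loess, 1 without the 40% dimmest, 2 without tied probe sets and 1 with trend and robust, and 1 to 5 with a pair left out. The count lower, 1 in the main setting, was 2 after cyclic loess and 1 to 3 with a pair left out. The choroid plexus median of 0.26 was 0.055 without pair 1, so that it rests on that pair, and lay between 0.055 and 0.35 with each pair left out. The vascular median of -0.0025 lay at -0.017 with centring, -0.024 with quantile normalization, -0.020 with cyclic loess, 0.090 without dim and 0.13 without tied probe sets. It was 0.021 with the mean of a gene's probe sets, -0.014 without members shared with other cells, and -0.018 to 0.037 with a pair left out. The meningeal median of 0.19 changed sign to -0.063 without pair 2 and was 0.029 to 0.44 without the others, so that it too depends on single pairs. The SD of its 3 pair medians was 0.39. This median was 0.087 without members shared with other cells and 0.15 to 0.23 under the remaining alternatives. Counts past 2-fold in a pair stayed within 1.5 times of 5, 5 and 2. The signs of 13 genes were followed, namely those that the rule above picked for values of every array, and Lum with the smallest p. Folr1 was not among them. Of the 13, 10 to 13 kept the sign of the mean under each alternative that measured them all. The cause of these changes was not tested, and without a measure of background the limit set by dim probe sets is unknown.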
